A study of Mus musculus with 18 samples.

Results

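The MHC class II presentation genes are followed here in 2 macrophage subsets of mouse liver metastases. The 10 genes were taken by symbol, namely *H2-Aa*, *H2-Ab1*, *H2-Eb1*, *H2-DMa*, *H2-DMb1*, *H2-DMb2*, *H2-Oa*, *H2-Ob*, *Cd74* and *Ciita*. All 10 were among the 13759 genes of the macrophage count table. The study examined how NK cells enter colorectal cancer liver metastases and how macrophages there act on them. Its 18 bulk RNA-Seq libraries hold 12 of sorted NK cells and ILC1, which are not analysed here, and 6 of metastasis-associated macrophages (MAMs). The question of the macrophage comparison was how MAMs with much and with little surface F4/80, a macrophage adhesion receptor encoded by *Adgre1*, differ in their transcripts.

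Both subsets came from female C57BL/6J mice carrying metastases of MC38, a mouse colon adenocarcinoma line, after injection of the cells into the spleen. No engineered allele and no further treatment is named for these mice, and per the methods mice were 8 to 10 weeks old and metastases were analyzed 20 days after injection. F4/80high MAMs (3 libraries) were sorted as CD45+CD11b+F4/80high cells and F4/80low MAMs (3 libraries), also named F4/80int in the study, as CD45+CD11b+F4/80low cells. The labels add a lineage exclusion whose antibodies they do not list, and the stated gate names neither MHC class II nor CD11c. Neither the labels nor the methods say whether each macrophage library came from its own mouse or from a pool, so the p-values measure the spread between these libraries, which may be technical. The libraries held 21278959 to 29851067 counts in F4/80high and 24866342 to 32267015 in F4/80low. *Adgre1*, the gate gene, was at 901, 806 and 1167 CPM (counts scaled to library size) in F4/80high against 124, 160 and 153 CPM in F4/80low, so the libraries follow their labels.

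MHC class II molecules display peptides from endosomes to CD4+ T cells. The α and β chains pair in the endoplasmic reticulum with the invariant chain, CD74, which blocks the groove and guides the complex to endosomes. There proteases trim CD74 to the fragment CLIP, H2-DM exchanges CLIP for antigenic peptide, and H2-O restrains H2-DM. Transcription of these genes depends on CIITA, a coactivator that does not bind DNA itself but docks on RFX, CREB and NF-Y factors seated on the X and Y boxes of class II promoters. Macrophages switch *Ciita* on mainly in response to IFN-γ, whereas dendritic cells and B cells express it without that signal. C57BL/6 mice lack a working *H2-Ea* gene, so the H2-E β chain is transcribed without a partner on the surface.

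The 8 H2 genes lie in the MHC on chromosome 17 of the GRCm39 assembly, between the start of *H2-Oa* at 34311314 and the end of *H2-Eb1* at 34535648 (GENCODE vM39). *Ciita* lies on chromosome 16 (10297923 to 10347694, plus strand). The annotated spans of *H2-Aa* (34493404 to 34506798, minus strand) and *H2-Eb1* (34504236 to 34535648, plus strand) overlap, and whether reads were assigned by strand is not given in the sources used here, so reads of the overlap cannot be told apart. The promoters of the 8 H2 genes and *Ciita* were read from 250 bases before to 50 bases after the start of the canonical transcript and searched on both strands for TGATTGG, which holds the Y box core ATTGG that NF-Y binds, and for ATGATG, found on the X box side. These letters were chosen after the promoters had been read. The *Cd74* promoter was left out of the search, so the counts below do not cover it. TGATTGG stood in 7 of the 9 promoters, each time on the transcript's strand and within 50 bases before the start, and ATGATG in 5. In 4 promoters both were present upstream of the start, with 15 to 18 bases between them. Among the promoters of 21770 protein-coding genes read the same way, 9.21% held TGATTGG, 10.09% held ATGATG and 0.73% held both. The 55 bases around the TGATTGG match are shown for the 7 genes because these stretches carry the shared letters. Each is written 5′ to 3′ on the transcript's strand from GRCm39, with the matches in capitals.
*H2-Aa* (chr17:34506838-34506892, minus strand): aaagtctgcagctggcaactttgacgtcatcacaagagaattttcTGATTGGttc
*H2-Ab1* (chr17:34482109-34482163, plus strand): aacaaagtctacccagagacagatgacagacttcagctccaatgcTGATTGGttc
*H2-Eb1* (chr17:34524735-34524789, plus strand): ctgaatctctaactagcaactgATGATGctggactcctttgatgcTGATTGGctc
*H2-DMa* (chr17:34354474-34354528, plus strand): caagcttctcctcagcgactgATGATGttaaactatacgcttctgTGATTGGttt
*H2-DMb2* (chr17:34364086-34364140, plus strand): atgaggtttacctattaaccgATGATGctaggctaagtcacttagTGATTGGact
*H2-Oa* (chr17:34311263-34311317, plus strand): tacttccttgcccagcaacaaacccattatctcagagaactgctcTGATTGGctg
*H2-Ob* (chr17:34457775-34457829, plus strand): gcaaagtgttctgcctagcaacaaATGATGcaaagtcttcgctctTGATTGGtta
The *H2-DMb1* window held ATGATG after the start and no TGATTGG, and the *Ciita* window held neither, which says only that these letters are not in those windows. A match is a run of letters and was not tested as a binding site.

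All 10 class II genes were lower in F4/80high than in F4/80low MAMs, with log2 fold changes (F4/80high minus F4/80low) from -5.04 to -1.55, and in all 10 every F4/80high library lay under every F4/80low library. The difference was tested with edgeR's quasi-likelihood test over all 13759 genes, with p-values adjusted by the Benjamini-Hochberg method and calls made under 0.1. The subsets differed widely. Of all genes, 54.9% were called, 27.1% as lower and 27.8% as higher in F4/80high, and 28.6% had every F4/80high library under every F4/80low library. The median log2 fold change was -2.79 over the 10 genes and 0.01 over all genes. Together the 10 genes took 0.898%, 0.515% and 0.627% of all counts in F4/80high replicates 1 to 3, against 4.43%, 3.73% and 3.34% in F4/80low. In bulk RNA, fewer class II-expressing cells and less class II RNA per cell cannot be told apart. Markers of dendritic cells moved the same way. The summed level of 11 conventional dendritic cell markers was 30.6 to 36.4 CPM in F4/80high and 530 to 759 CPM in F4/80low, and their part in the class II difference was not tested.

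**Figure D1:**
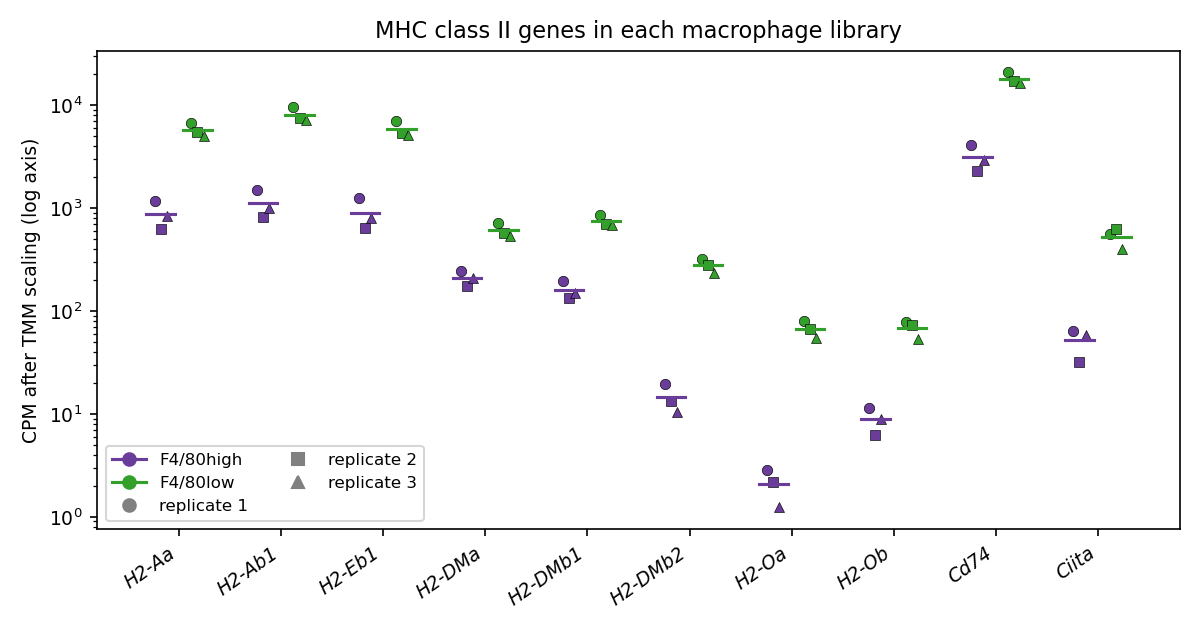
Normalized level of each class II gene in the 6 macrophage libraries (CPM after TMM scaling, log axis), with F4/80high in purple, F4/80low in green, a marker shape per replicate and a line at the mean of 3. No gene has an overlap between the subsets, and the gap is widest for *H2-Oa* (1.23 to 2.84 CPM against 54.5 to 79.8 CPM).

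*H2-Aa* and *H2-Ab1* encode the α and β chains of H2-A, the class II molecule that C57BL/6 cells display. *H2-Aa* was at 1178, 624 and 842 CPM in F4/80high and at 6801, 5505 and 5009 CPM in F4/80low. *H2-Ab1* was at 1509, 813 and 1015 CPM in F4/80high and at 9580, 7576 and 7252 CPM in F4/80low. The lowest F4/80low library of each gene was over 4 times its highest F4/80high library (4.25 times for *H2-Aa* and 4.81 times for *H2-Ab1*). The log2 fold change was -2.71 ± 0.24 (SE, n = 3 per subset, edgeR adjusted p = 5.25e-05) for *H2-Aa* and -2.87 ± 0.24 (edgeR adjusted p = 4.08e-05) for *H2-Ab1*. *H2-Eb1*, the β chain of H2-E, was at 1245, 649 and 809 CPM in F4/80high and at 7041, 5418 and 5184 CPM in F4/80low. Its log2 fold change of -2.71 ± 0.25 (edgeR adjusted p = 6.78e-05) equalled that of *H2-Aa*, and the log2 ratio of the 2 genes within a library overlapped between the subsets (-0.08 to 0.06 in F4/80high and -0.05 to 0.02 in F4/80low). *H2-Eb2*, a neighbor of *H2-Eb1* that is not among the 10, was at 0.389 to 0.810 CPM in F4/80high and 14.7 to 22.6 CPM in F4/80low, a log2 fold change of -4.95 ± 0.30 (edgeR adjusted p = 8.0e-06).

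*Cd74*, the invariant chain (GRCm39 chromosome 18, 60936899 to 60945731, plus strand), collected more counts than any other gene in F4/80low, uncorrected for transcript length, and ranked 15 in F4/80high. It was at 4140, 2308 and 2964 CPM in F4/80high and at 20877, 17290 and 16517 CPM in F4/80low. Even the lower subset therefore kept *Cd74* among its most counted transcripts, while the lowest F4/80low library was 3.99 times the highest F4/80high one. The log2 fold change was -2.54 ± 0.22 (edgeR adjusted p = 5.03e-05).

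H2-DM is the editor that removes CLIP and selects tightly bound peptides. Its α chain gene *H2-DMa* was at 243, 177 and 208 CPM in F4/80high and at 716, 575 and 538 CPM in F4/80low. This was the smallest difference of the 10, with a log2 fold change of -1.55 ± 0.15 (edgeR adjusted p = 8.93e-05), and still left the subsets 2.22 times apart at their nearest libraries. Of the genes for the β chain, *H2-DMb1* was at 195, 134 and 150 CPM in F4/80high and at 860, 708 and 685 CPM in F4/80low. *H2-DMb2* was at 19.6, 13.5 and 10.5 CPM in F4/80high and at 324, 279 and 233 CPM in F4/80low. Both were thus ordered by subset without overlap. The log2 fold change was -2.23 ± 0.16 (edgeR adjusted p = 1.93e-05) for *H2-DMb1* and -4.27 ± 0.24 (edgeR adjusted p = 5.81e-06) for *H2-DMb2*. The pair are near copies. Of the distinct stretches of 31 bases in the canonical transcript, 37.63% of those of *H2-DMb1* also occur in *H2-DMb2*, so the split of counts between them depends on the authors' counting and their separate values are uncertain. Read in the same orientation, none of the other 8 shared more than 1.71% of such stretches with transcripts of other genes. Sharing between opposite strands, as in the overlap of *H2-Aa* and *H2-Eb1*, was not searched.

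H2-O, the brake on H2-DM, is known from B cells and dendritic cells. *H2-Oa*, its α chain, was at 2.84, 2.20 and 1.23 CPM in F4/80high (63, 62 and 38 counts) and at 79.8, 67.1 and 54.5 CPM in F4/80low. *H2-Ob*, its β chain, was at 11.5, 6.31 and 8.92 CPM in F4/80high and at 78.4, 72.7 and 53.8 CPM in F4/80low. *H2-Oa* thus rested on few counts in F4/80high, and neither gene overlapped between the subsets. *H2-Oa* had the largest difference of the 10, with a log2 fold change of -5.04 ± 0.27 (edgeR adjusted p = 4.73e-06), or 32.8 times the level in F4/80low. *H2-Ob* had a log2 fold change of -2.95 ± 0.23 (edgeR adjusted p = 2.74e-05). Of 8 B cell markers, 1 was called lower and 2 higher in F4/80high, beside 27.1% and 27.8% of all genes. The summed level of these markers was 28.6 to 57.0 CPM in F4/80high against 9.90 to 27.7 CPM in F4/80low. This was the reverse of the order of *H2-Oa* and *H2-Ob*. *Pax5*, a defining B cell gene, was at or under 3.56 CPM in every library.

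*Ciita*, the coactivator of the other 9 genes, was at 64.6, 32.2 and 59.1 CPM in F4/80high and at 556, 635 and 399 CPM in F4/80low. F4/80high replicate 2 was the lowest and F4/80low replicate 2 the highest, and the nearest libraries of the subsets were 6.18 times apart. The log2 fold change was -3.35 ± 0.28 (edgeR adjusted p = 4.40e-05), which corresponds to 10.2 times the level in F4/80low. *Ciita* is transcribed from several promoters with different cell type use, and counts summed per gene do not separate them.

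The 10 genes did not fall by the same amount. Ordered from the largest difference to the smallest, they were *H2-Oa*, *H2-DMb2*, *Ciita*, *H2-Ob*, *H2-Ab1*, *H2-Aa*, *H2-Eb1*, *Cd74*, *H2-DMb1* and *H2-DMa*. A ratio of 2 genes within a library does not depend on scaling, so neighbors in this order were compared by that ratio. The ratios of *H2-Ob* to *H2-Ab1* and of *H2-Aa* to *H2-Eb1* overlapped between the subsets, so these neighbors do not differ beyond their spread. For the other 7 pairs of neighbors the libraries of the subsets did not overlap. The order was taken from these same libraries, so the direction of each ratio was built in and the separation is only a description. How often other pairs of genes separate in this way was not counted. Pairs with *H2-DMb1* or *H2-DMb2* carry the uncertainty of their shared stretches. No p is given for these ratios, since 3 libraries against 3 cannot pass under an exact p of 0.1.

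The proportions of H2-DM and H2-O also differed. Counts of the 3 H2-DM genes were 31.95, 38.18 and 36.28 times those of *H2-Oa* and *H2-Ob* together in F4/80high, and 12.0, 11.2 and 13.4 times in F4/80low. With each gene's counts divided by its transcript length, this ratio was 55.2, 62.4 and 68.3 in F4/80high and 15.3, 14.5 and 17.2 in F4/80low. On both scales it was higher in F4/80high, with no overlap. *H2-Ob* over *H2-Oa*, per kilobase of transcript, was 1.80, 1.28 and 3.22 in F4/80high against 0.438, 0.483 and 0.440 in F4/80low. On this scale the order of the genes for the H2-O chains turned between the subsets, with at most 63 counts of *H2-Oa* in F4/80high. On counts alone, *H2-Ob* over *H2-Oa* was 4.05, 2.87 and 7.24 in F4/80high and 0.982, 1.08 and 0.987 in F4/80low. The higher ratio in F4/80high thus held on both scales, whereas the turn of the order rests on the canonical transcript lengths. *H2-DMb1* over *H2-DMb2* was 9.97, 9.94 and 14.3 in F4/80high and 2.65, 2.54 and 2.94 in F4/80low, with the uncertainty of the shared stretches given above. The invariant chain moved less against its cargo. *Cd74* over the sum of *H2-Aa*, *H2-Ab1* and *H2-Eb1* was 1.05, 1.11 and 1.11 in F4/80high and 0.891, 0.935 and 0.947 in F4/80low. *H2-Ab1* over *H2-Aa* was 1.28, 1.30 and 1.20 in F4/80high and 1.41, 1.38 and 1.45 in F4/80low. Both of these ratios separated the subsets by a narrow margin.

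**Figure D2:**
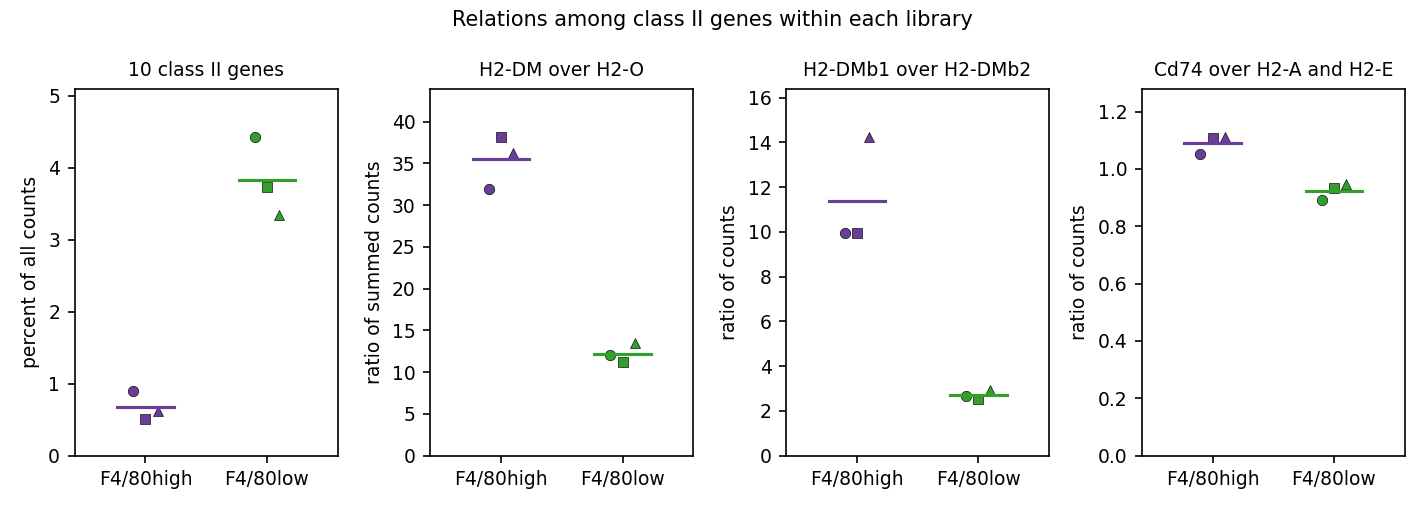
Share of all counts in the 10 class II genes, and ratios of counts within each library, for F4/80high (purple) and F4/80low (green), with a point per library and a line at the mean of 3 (linear axes from 0). H2-DM over H2-O averages 35.5 in F4/80high and 12.2 in F4/80low, while *Cd74* over the H2-A and H2-E chains averages 1.09 and 0.924.

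As CPM per kilobase of canonical transcript, a scale on which levels of different genes can be compared, *Cd74* was highest in both subsets, at 2193 ± 649 (SD, n = 3) in F4/80high and 12738 ± 1626 in F4/80low. It was followed by *H2-Ab1*, *H2-Aa* and *H2-Eb1*, at 918, 781 and 531 in F4/80high and 6713, 5117 and 3466 in F4/80low. In F4/80high, *H2-Ab1* overlapped with *H2-Aa*, and *H2-Aa* with *H2-Eb1*, although the order held within each library. In F4/80low the first of these pairs overlapped as well. The H2-DM genes came next. In F4/80high they stood at 182 (*H2-DMa*), 114 (*H2-DMb1*) and 9.95 (*H2-DMb2*). In F4/80low *H2-DMb1* and *H2-DMa* could not be ordered (535 and 530, in this order in 2 of 3 libraries), and *H2-DMb2* was at 191. *Ciita* (6.95 and 70.8), *H2-Oa* (1.73 and 55.6) and *H2-Ob* (3.28 and 25.2) were lowest in both subsets, and *H2-Oa* was under *H2-Ob* in F4/80high but over it in F4/80low, in 3 of 3 libraries each. The F4/80low order of *H2-Oa* and *H2-Ob* rests on the transcript lengths, as given above. By the ranges of the libraries, *H2-DMb2* and *Ciita* overlapped in F4/80high, as did *H2-Ob* and *H2-Oa*, and *Ciita* and *H2-Oa* overlapped in F4/80low.

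Within a subset the class II genes varied together. F4/80high replicate 1 had the highest CPM for 10 of 10 and replicate 2 the lowest for 8 of 10. In F4/80low, replicate 1 was highest for 9 of 10 and replicate 3 lowest for 10 of 10. How often genes at large had these replicates highest or lowest was not counted, so the orders are not shown to be particular to class II. Their coefficients of variation ran from 15.8% (*H2-DMa*) to 38.7% (*H2-Oa*) in F4/80high and from 12.6% (*H2-DMb1*) to 22.7% (*Ciita*) in F4/80low, against a median over genes of at least 5 CPM of 9.31% and 7.93%. Over replicates 1 to 3, the B cell markers summed to 57.0, 28.6 and 50.1 CPM in F4/80high and 27.7, 12.2 and 9.90 CPM in F4/80low. The 6 mature dendritic cell markers summed to 48.1, 68.7 and 46.0 CPM in F4/80high and 1782, 1114 and 887 CPM in F4/80low, and the conventional dendritic cell markers to 36.4, 32.1 and 30.6 CPM and to 757, 759 and 530 CPM. In F4/80high, the B cell sum had replicate 1 highest and replicate 2 lowest, as most class II genes had. Neither dendritic cell sum did. The T cell sum (18.6, 7.69 and 14.3 CPM) and the NK cell sum (3.06, 0.815 and 1.59 CPM) also had this order. It was thus not particular to the B cell list. The part of any of these cells in the spread of the class II genes was not tested.

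The factors that seat CIITA on class II promoters differed little between the subsets. Of 8 such genes, 2 were called lower in F4/80high, none higher and 6 were not called, with a median log2 fold change of -0.10. The number lower lay near the share over all genes, of which 27.1% were lower and 27.8% higher. *Rfx5*, the RFX subunit mutated in some bare lymphocyte syndromes, was at 20.7, 17.1 and 22.9 CPM in F4/80high and at 35.36, 33.03 and 27.07 CPM in F4/80low (log2 fold change -0.65 ± 0.14, edgeR adjusted p = 0.00536). *Atf1*, of the CREB family, had a log2 fold change of -0.27 ± 0.08 (edgeR adjusted p = 0.0219). Both were without overlap between the subsets. Among the genes not called, the RFX partners *Rfxap* and *Rfxank* had log2 fold changes of -0.14 ± 0.09 and 0.03 ± 0.12, the NF-Y subunits *Nfya*, *Nfyb* and *Nfyc* of -0.04 ± 0.09, -0.08 ± 0.09 and -0.12 ± 0.08, and *Creb1* of -0.05 ± 0.12.

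Genes of IFN-γ signaling, the route that induces *Ciita* in macrophages, were mostly lower in F4/80high, with a smaller median difference than the class II genes. Of 18, 13 were called lower, none higher and 5 were not called, with a median log2 fold change of -0.50. Over all genes, 27.1% were called lower and 27.8% higher. With upper-quartile scaling, 12 of the 18 were called, 11 of them lower. The list was not split by whether a gene carries or restrains the signal. *Jak2*, a kinase bound to the IFN-γ receptor, was at 53.3, 46.9 and 52.3 CPM in F4/80high and at 393, 338 and 266 CPM in F4/80low (log2 fold change -2.71 ± 0.15, edgeR adjusted p = 5.34e-06). *Gbp2*, an IFN-γ-induced GTPase, was at 181, 93.8 and 167 CPM against 409, 241 and 295 CPM (log2 fold change -1.10 ± 0.27, edgeR adjusted p = 0.00979). *Ifngr1*, the ligand-binding receptor chain, had a log2 fold change of -1.04 ± 0.13 (edgeR adjusted p = 0.000288). Of the IFN-γ-induced chemokines, neither was called. *Cxcl9* was at 184, 74.2 and 113 CPM in F4/80high and at 249, 168 and 110 CPM in F4/80low, with overlap and a log2 fold change of -0.51 ± 0.36 (edgeR adjusted p = 0.277). *Cxcl10* had a log2 fold change of -0.05 ± 0.12 (edgeR adjusted p = 0.733).

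**Figure D3:**
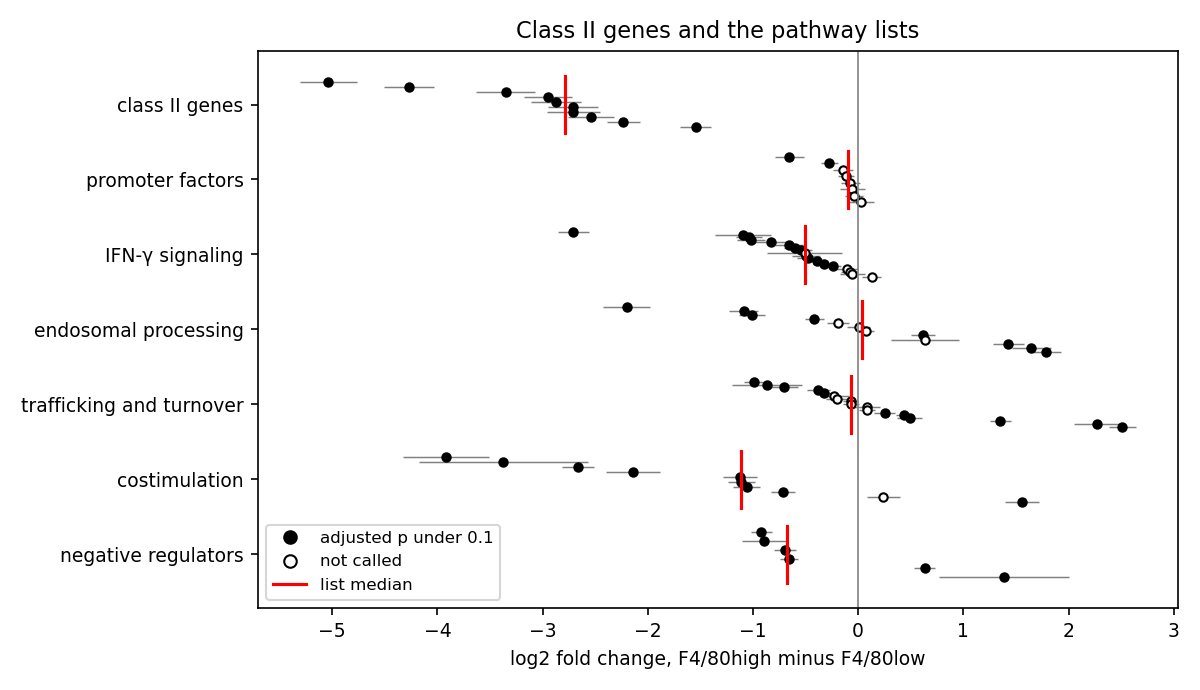
Log2 fold change (F4/80high minus F4/80low) with its approximate SE for the 10 class II genes and 6 lists of related genes, filled where the adjusted p is under 0.1, with a red line at each list's median. The class II genes lie between -5.04 and -1.55, whereas the promoter factors lie between -0.65 and 0.03 and the processing and trafficking lists reach to both sides of 0.

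The endosomal genes that prepare peptides and trim the invariant chain were called about as often in each direction as genes over the whole table. Of 12, 4 were lower, 4 higher and 4 not called in F4/80high, where 27.1% of all genes were lower and 27.8% higher, with a median log2 fold change of 0.04. *Lgmn* (asparaginyl endopeptidase), *Ctsd* and *Ctsb* (cathepsins D and B) rose in F4/80high by log2 fold changes of 1.79 ± 0.14, 1.65 ± 0.18 and 1.43 ± 0.15. *Lgmn* was at 3276, 2837 and 3079 CPM there against 796, 801 and 1066 CPM in F4/80low (edgeR adjusted p = 3.02e-05). The genes that fell included *Ifi30*, the lysosomal thiol reductase GILT (-1.09 ± 0.14), and the cysteine protease inhibitors *Cst3* (-1.01 ± 0.13) and *Cst7* (-2.20 ± 0.23, at or under 8.47 CPM in every library). *Ctss*, cathepsin S, which makes the last cuts that leave CLIP, was at 3169, 2620 and 3148 CPM in F4/80high and at 2986, 2795 and 3126 CPM in F4/80low, with overlap and a log2 fold change of 0.00 ± 0.11 (edgeR adjusted p = 0.975).

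Genes of class II trafficking and turnover also lay near these shares, with 5 of 17 lower, 6 higher and 6 not called and a median log2 fold change of -0.07. The tetraspanins *Cd81* and *Cd63* and the ubiquitin ligase *Marchf8*, which can target class II molecules for turnover, rose in F4/80high by log2 fold changes of 2.51 ± 0.13, 2.27 ± 0.22 and 1.35 ± 0.10. *Marchf8* was at 58.2, 61.6 and 63.0 CPM in F4/80high and at 21.2, 25.2 and 25.3 CPM in F4/80low (edgeR adjusted p = 1.88e-05). The ligase of myeloid antigen-presenting cells, *Marchf1*, was not called (-0.23 ± 0.14, edgeR adjusted p = 0.206). *Cd82* and *Cd9*, also tetraspanins, fell by 0.99 and 0.71 on the log2 scale. *Cd83*, which opposes MARCH1, was called lower at an edgeR adjusted p of 0.0621, but its call ended under 5 of 14 alternatives and its libraries overlapped (95.9 to 212 CPM in F4/80high and 208 to 424 CPM in F4/80low).

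Ligands that give T cells a stimulatory or inhibitory signal beside the displayed peptide were mostly lower in F4/80high. The list mixes both kinds, with *Cd274*, *Pdcd1lg2*, *Cd276* and *Vsir* mainly known as inhibitory. Of 10 in the table (*Cd70* was not among its genes), 8 were lower, 1 higher and 1 not called, with a median log2 fold change of -1.12. The shares over all genes were 27.1% lower and 27.8% higher. *Pdcd1lg2* (PD-L2, an inhibitory ligand) was at 1.71, 0.602 and 1.01 CPM in F4/80high and at 22.4, 16.7 and 10.1 CPM in F4/80low (log2 fold change -3.92 ± 0.41, edgeR adjusted p = 0.000130). *Cd80* was at 8.87, 6.94 and 6.19 CPM against 50.9, 40.0 and 47.9 CPM (-2.66 ± 0.16, edgeR adjusted p = 7.19e-06). *Tnfsf4* (OX40 ligand) was called lower as well but had few counts, at or under 1.61 CPM in every library. *Cd276* (B7-H3) was the one gene that rose (1.56 ± 0.16, edgeR adjusted p = 0.000133). Mature dendritic cells express many of these genes, and their 6 markers summed to 46.0 to 68.7 CPM in F4/80high and 887 to 1782 CPM in F4/80low. The part of such cells in this difference was not tested.

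Of 6 genes from pathways known to hold *Ciita* or class II surface levels down, 4 were lower and 2 higher in F4/80high, with a median log2 fold change of -0.68. Among all genes, 27.1% were called lower and 27.8% higher. *Stat3*, *Il10ra* and *Prdm1* had log2 fold changes of -0.92 ± 0.10, -0.70 ± 0.11 and -0.89 ± 0.21, all without overlap. *Il10rb* rose by 0.63 ± 0.10. *Il10* was at 4.41, 1.03 and 2.37 CPM in F4/80high and at 1.41, 0.342 and 1.21 CPM in F4/80low, with overlap and an edgeR adjusted p of 0.0993, just under the threshold. Its call ended under 7 of 14 alternatives, which leaves 1 gene of the list higher.

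The other cell types that a CD11b gate can hold were followed with 12 marker lists. Their counts stand beside 27.1% of all genes called lower and 27.8% called higher in F4/80high. Of 11 macrophage markers, 9 were higher and none lower in F4/80high, with sums of 14667 to 18565 CPM against 5580 to 6478 CPM, so macrophage genes were strongly expressed in both subsets. All 8 classical monocyte markers were lower in F4/80high (sums of 473 to 594 CPM against 2144 to 2427 CPM), among them *Ccr2* (426 to 525 CPM against 1358 to 1392 CPM) and *S100a8* (0 to 0.0354 CPM against 1.30 to 21.05 CPM). Class II therefore followed the subset with more monocyte and less macrophage marker RNA. Of the 11 conventional dendritic cell markers, 10 were lower in F4/80high. *Cd209a* was at 2.43, 2.55 and 0.811 CPM in F4/80high against 141, 134 and 110 CPM in F4/80low (log2 fold change -6.08 ± 0.33, edgeR adjusted p = 4.83e-06), and the defining genes *Zbtb46* and *Flt3* were at or under 2.61 CPM in F4/80high against 42.4 to 132 CPM in F4/80low. *Xcr1*, of type 1 dendritic cells, was not called (0.850 to 2.01 CPM against 0.605 to 4.13 CPM). All 6 mature dendritic cell markers were lower, among them *Fscn1* (29.8, 56.5 and 31.5 CPM against 541, 318 and 247 CPM) and *Ccl17* (1.04 to 1.67 CPM against 83.7 to 148 CPM).

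The remaining lists moved in either direction. Of 5 plasmacytoid dendritic cell markers, 3 were higher and 2 lower in F4/80high, and their sum (406 to 422 CPM against 253 to 283 CPM) came mainly from *Bst2*, which macrophages also express. Kupffer cell markers summed to 75.6 to 104 CPM in F4/80high and 15.0 to 21.8 CPM in F4/80low, mainly from *Folr2*, although *Timd4* was lower in F4/80high (0.0901 to 0.519 CPM against 7.29 to 9.21 CPM). Neutrophil markers summed to 73.9 to 104 CPM against 94.5 to 131 CPM, mainly from *Csf3r*, and 4 of 5 were lower in F4/80high. Their *Ngp* was at 51.4 CPM in F4/80low replicate 1 and at 1.30 and 5.06 CPM in replicates 2 and 3. Without that replicate all 10 class II genes were still called, with log2 fold changes of -4.90 for *H2-Oa* and -1.42 for *H2-DMa*. T cell, NK cell and hepatocyte markers summed to at most 30.0, 19.9 and 9.81 CPM in any library, with 2 of 8, 3 of 4 and 0 of 3 called lower. The epithelial genes *Epcam* and *Cdh1*, of the tumor epithelium list, were both lower in F4/80high (sums of 8.30 to 11.8 CPM against 197 to 281 CPM), and dendritic cells can express them too. Of the 89 markers listed, 12 were not among the genes of the table, which leaves out low genes, 4 of the 6 of the tumor epithelium list among them, and no marker in the table was at 0 in all 6 libraries. The part of any of these cells in the class II difference was not tested.

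**Figure D4:**
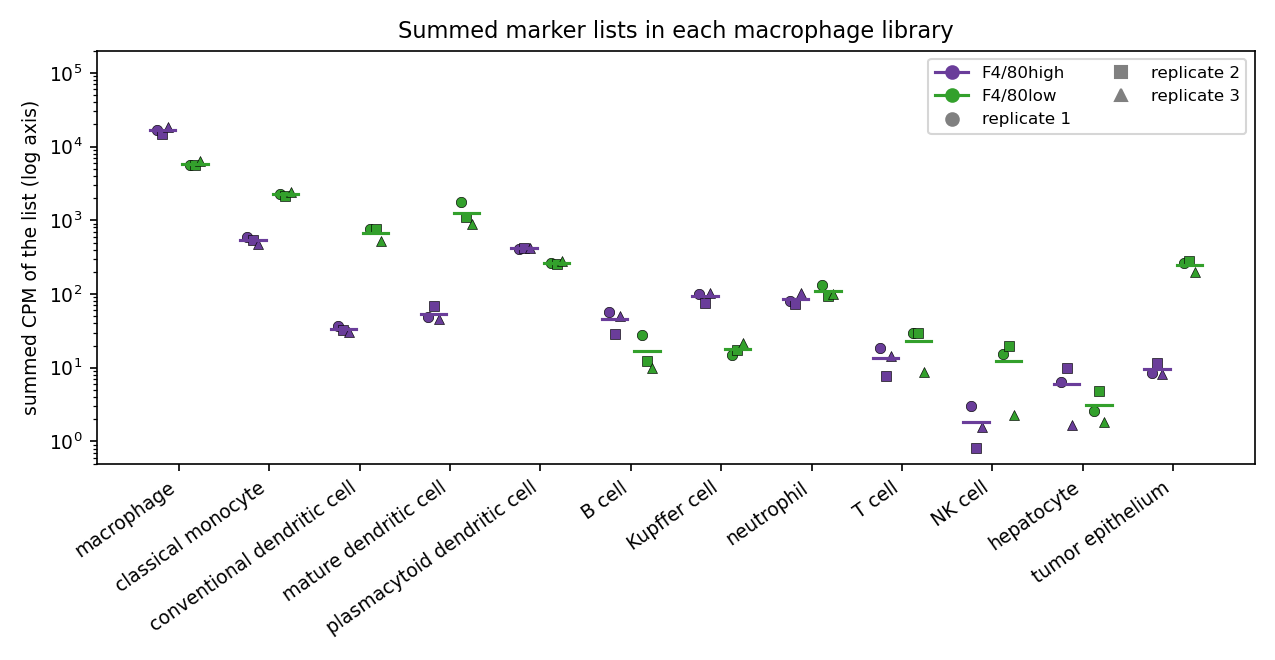
Summed CPM of each of 12 marker lists in the 6 libraries (log axis), with F4/80high in purple, F4/80low in green and a line at the mean of 3. Monocyte and both conventional and mature dendritic cell lists are higher in F4/80low, as class II was, whereas macrophage and Kupffer cell lists are higher in F4/80high.

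Genes whose level followed the H2-A and H2-E chains most closely over the 6 libraries were sought among 10070 genes of at least 5 CPM, with Pearson's r to the mean log2 CPM of *H2-Aa*, *H2-Ab1* and *H2-Eb1*. The 5 nearest genes were *Arl5c*, *Spint2*, *P2ry10*, *Sf3b1* and *Il2rg*, with r from 0.9985 to 0.9991. As 1112 genes had an r over 0.95 and the libraries fall in 2 groups, the measure mostly reflects the subset difference. *P2ry10*, a lysophospholipid receptor, was at 3.60, 1.42 and 2.08 CPM in F4/80high and at 101, 75.7 and 61.4 CPM in F4/80low. It kept the replicate order of *H2-Aa* in both subsets, as did *Arl5c*, *Spint2* and *Il2rg*, while *Sf3b1* did not in F4/80low. The 5 genes were chosen for following these chains over the same libraries, so a shared order is partly built into the choice.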

How the data were processed

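RNA was extracted from sorted macrophages, and poly(A) libraries were made with a directional kit and sequenced on an Illumina NovaSeq. The submitters' processing notes name Trim Galore, Salmon 1.10.0, R 4.3.1, DESeq2 1.40.2 and GRCm39, without roles. The authors deposited estimated counts as whole numbers per gene, not normalized. The annotation release and strand setting used to count the macrophage libraries are not given in the sources used here. No gene had fewer than 37 counts in all, so low genes had been left out beforehand. Salmon shares ambiguous reads among similar transcripts, which affects *H2-DMb1* and *H2-DMb2*.

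Of 13759 gene IDs, 13726 were named from GENCODE vM39. Calculations used R 4.3.3, edgeR 4.0.16, limma 3.58.1, DESeq2 1.42.0 and Python 3.11.15. edgeR's filterByExpr kept all 13759 genes. Libraries were scaled by TMM (factors 0.930 to 1.081), subsets were compared with edgeR's quasi-likelihood test, and p-values were adjusted over all genes by the Benjamini-Hochberg method, with calls at 0.1 as in the study. The SE is the log2 fold change divided by the square root of F and is approximate. The code was tested on simulated data. Named genes were the 10 members, up to 3 called genes of largest change per direction and pathway list, all promoter factors, the highest and the most changed gene of marker lists (given for the lists that bear on class II), and the 5 nearest genes by r. *Ctss*, *Cxcl9*, *Cxcl10*, *Marchf1*, *H2-Eb2*, *Zbtb46*, *Flt3*, *Xcr1*, *Pax5*, *Cd274*, *Vsir*, *Jak1*, *Myo1e* and *Usf1* fall outside that rule and were named after their values were seen. The members and lists were chosen with earlier results of these data known. Alternatives changed the scaling, the filter, the tool and the threshold, blocked on replicate number and left out each library.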

Additional observations from a re-analysis of the deposited data

How the results depend on the processing

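Each alternative kept the 10 class II genes called lower in F4/80high, and the counts of called genes over the table and in each of the 6 lists of related genes stayed within 1.5 times. The marker lists were not recomputed. Of the genes called in the 6 lists, *Il10* lost its call under 7 of 14 alternatives, *Cd83*, *Jak1* and *Myo1e* under 5 and *Usf1* under 2. Over the 13 alternatives with a fold change, *H2-Oa* ranged from -5.30 to -4.75, *H2-DMa* from -1.67 to -1.42 and *Ciita* from -3.54 to -3.10 on the log2 scale, and the largest adjusted p of any of the 10 was 0.000595. Libraries with the same replicate number deviated together weakly at most (correlations of their deviations from the subset means of 0.17, -0.01 and 0.03). Between unlike numbers the correlations ran from -0.12 to 0.09. Neither the labels nor these values decide whether libraries of the same number came from the same mice. With the replicate block, 7512 genes were called, 10 of 10 class II genes among them, and the number of IFN-γ signaling genes called was 14. The number of libraries (3 per subset) and their unstated source limit the precision. Low levels, such as *H2-Oa* in F4/80high at 38 to 63 counts, carry the largest counting error. The split between *H2-DMb1* and *H2-DMb2* depends on the counting and was not tested.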
